A study of Ovis aries with 15 samples.

Results

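Matrix metalloproteinases (MMPs), their relatives the ADAMs and ADAMTSs, and the tissue inhibitors of metalloproteinases (TIMPs) were followed across the ovine mammary gland in late pregnancy and lactation. The genes were chosen by name, as every feature of the deposited table whose symbol is MMP, ADAM, ADAMTS or TIMP followed by a number and at most 1 letter. Of the 24691 features, 59 carried such a name (20 MMPs, 18 ADAMs, 18 ADAMTSs and 3 TIMPs). Of these, 34 had at least 10 exon reads in at least 6 of the 15 libraries and were kept (11 MMPs, 9 ADAMs, 11 ADAMTSs and 3 TIMPs). No measured difference between conditions entered that choice, although reads were more often sufficient in late pregnancy: 16 kept genes reached 10 reads in all 6 lactation libraries, and 18 did not. MMP16, MMP27 and ADAMTS4 reached 10 reads in no lactation library and were kept through late pregnancy alone.

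The study sequenced RNA from needle biopsies of mammary parenchyma of 2-year-old Romney ewes in their first pregnancy. Late pregnancy biopsies were taken at day 135 ± 2.4 (SD) of gestation and lactation biopsies at day 15 ± 1.27 (SD) after lambing. Each library was a pool of RNA from several ewes, and there were 9 late pregnancy and 6 lactation libraries. The labels name 3 groups by the pasture allowance that the dams of these ewes had received from day 21 to day 50 of their own gestation, which was ad libitum (HM), maintenance (MM) or sub-maintenance (LM), followed by a maintenance allowance in all 3 groups. The ewes themselves were all managed and fed alike. Each group had 3 late pregnancy pools and 2 lactation pools. By the series text a pool held 3 ewes in late pregnancy and 2 in lactation, while the methods of the study give 3 for both. The labels say that the ewes were biopsied in both states, but not which pools share ewes, so p-values measure the spread between pools.

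MMPs are zinc proteases that cleave collagens, proteoglycans and other proteins outside the cell, most being secreted and a few anchored in the membrane. ADAMs are membrane proteases that release the outer part of other membrane proteins, such as growth factors and Notch receptors, and ADAMTSs are secreted relatives that trim procollagens, proteoglycans and fibrillin microfibrils. TIMPs block the active site of these proteases, and in the mammary gland the balance of both is known for its part in ductal growth and in the remodelling after weaning.

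The late pregnancy libraries held 6471237 to 16898986 reads on exons, and those of lactation held 9014506 to 24001031. In the latter, 7 milk protein genes took 71.3 to 75.8% of them, against 13.7 to 23.4% in late pregnancy, so the reads left for other genes were fewer. Values are therefore given as counts per 1000000 reads (CPM) after scaling by the trimmed mean of M-values (TMM), which sets the median log2 change of all 13345 tested genes at -0.03. The first lactation pool of the HM group stood apart from the other 5 on the second principal component (-23.66 against 0.50 to 8.04) and had the lowest milk protein share of the 6. In these bulk samples, fewer cells of a type and less RNA per cell cannot be told apart.

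Most of the proteases and inhibitors that changed were lower in lactation. Of the 33 kept genes that entered the test of state (edgeR's quasi-likelihood F-test, called at a Benjamini-Hochberg adjusted p under 0.05 over all tested genes), 16 fell and 6 rose in lactation, and 11 were not called. The median log2 change of the 33 was -0.38. Among all 13345 tested genes, 68.4% were called, 35.2% lower and 33.1% higher. With 22 of 33 called, the share of the proteases and inhibitors that changed was thus near that of all genes, and the split was more to the lower side. By class, 5 MMPs fell and 2 rose of 10 tested, 7 ADAMs fell and 1 rose of 9, 2 ADAMTSs fell and 3 rose of 11, and 2 of 3 TIMPs fell. The median log2 changes were -0.49 for MMPs, -0.89 for ADAMs, -0.29 for ADAMTSs and -0.33 for TIMPs. The 16 genes with enough reads in every lactation library and the 18 without, of which MMP25 was not tested, held the same number of calls, 8 lower and 3 higher in each.

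**Figure D1:**
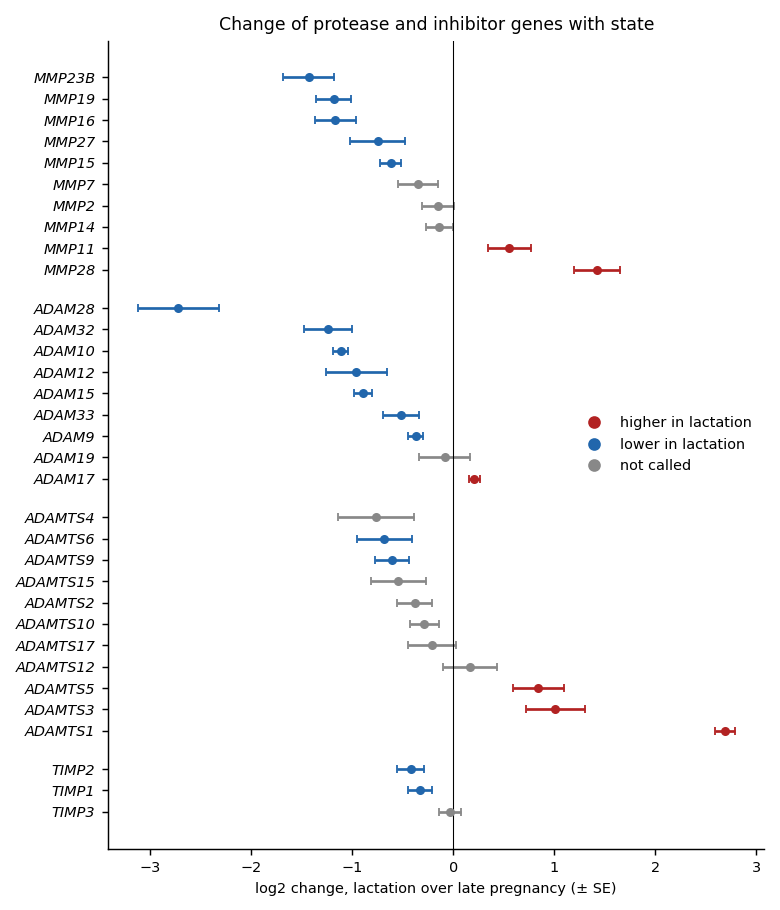
Log2 change of the 33 tested proteases and inhibitors between states (x axis, lactation over late pregnancy, point ± SE; genes on the y axis, by class). Blue genes were called lower, red genes higher and grey genes not called; ADAM28 lies farthest to the left at -2.72 and ADAMTS1 farthest to the right at 2.69.

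More than 2-fold falls were found for 6 of the kept genes (ADAM28, MMP23B, ADAM32, MMP19, MMP16 and ADAM10), against 13.0% of all tested genes, and more than 2-fold rises for 3 (ADAMTS1, MMP28 and ADAMTS3), against 9.13% of all tested genes. In 9 genes every lactation library was below every late pregnancy library, which was so for 20.0% of all tested genes. These were MMP15, MMP16, MMP19, MMP23B, ADAM9, ADAM10, ADAM15, ADAM28 and ADAM32. Among them, MMP16 reached the read minimum for keeping a gene in no lactation library, ADAM28 in 1, ADAM32 in 2 and MMP23B in 4. Their place among the kept genes thus rests mainly on late pregnancy, which limits the comparison of both counts of falls with all tested genes. ADAMTS1 was the only kept gene with every lactation library above every late pregnancy library, as had 20.2% of all tested genes. Of all tested genes, 40.2% had no overlap in either direction.

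Without TMM, on library size alone, the median log2 change of all genes moved to -1.94, and with that shift 1 kept gene (ADAMTS1) was called higher and 32 lower. Relative to that shift, the log2 changes were 2.71 for ADAMTS1, 1.44 for MMP28 and 1.05 for ADAMTS3. They were 0.88 for ADAMTS5, 0.59 for MMP11 and 0.24 for ADAM17. A change of scaling moves all genes by nearly the same amount, so these values repeat those under TMM and are no separate test. With upper quartile scaling (median of all genes -0.18), 4 were called higher and 21 lower.

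Among the ADAMs, ADAM10 and ADAM17 were the most abundant, and the first was called lower and the second higher. ADAM10, the sheddase that makes the first cut in Notch receptors and cuts E-cadherin and betacellulin, lies on chromosome 7 from 48536245 to 48673225 in the coordinates of the deposited table. Its level was 167 to 219 CPM in late pregnancy (median 187) and 76.9 to 97.5 CPM in lactation (median 90.3). No lactation library came near the late pregnancy range, and the fall was -1.12 ± 0.07 (SE) on the log2 scale (edgeR adjusted p = 6e-11). ADAM17, the sheddase of tumour necrosis factor and of several ligands of the EGF receptor, lies on chromosome 3 (18725904 to 18768724). It was at 57.4 to 70.4 CPM in late pregnancy (median 63.8) and 68.5 to 80.0 CPM in lactation (median 73.8). The ranges overlapped only between 68.5 and 70.4 CPM, and the rise was 0.21 ± 0.06 (edgeR adjusted p = 0.0031). The call was lost with upper quartile scaling (0.06) and in limma on quantile-normalized RPKM (0.05). Each library is deposited under lane 7 or lane 8, although the labels say that both were used for every library. All LM libraries are under lane 8 and both HM lactation pools under lane 7. Values within a lane therefore also differ in the nutrition groups they cover. Among the fewer libraries of either lane alone the change was of the same size (0.21 and 0.20) but was not called (edgeR adjusted p = 0.0574 and 0.0514). On library size alone it was -1.70, or 0.24 above the median of all genes.

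The other ADAMs were all lower or not called. ADAM15, whose extracellular part carries an integrin-binding motif, fell from 25.3 ± 2.51 to 13.7 ± 1.40 CPM (SD, n = 9 and 6; log2 change -0.89, edgeR adjusted p = 1.4e-08). Its lactation libraries ranged from 10.9 to 14.8 CPM (median 14.1), all below the late pregnancy range of 20.6 to 29.4 CPM (median 24.6). ADAM9, a widely expressed sheddase, fell by 0.37 on the log2 scale, ADAM12, which can release heparin-binding EGF, by 0.96, and ADAM33, known from airway mesenchyme, by 0.52. For ADAM12 the change was -0.38 within lane 7, where it was not called (edgeR adjusted p = 0.423), and -1.72 within lane 8. The call of ADAM33 was lost without the first MM lactation pool (-0.45, edgeR adjusted p = 0.0513) and within lane 8 (-0.36). It was also lost in limma on quantile-normalized RPKM (-0.16), run on log2(RPKM + 1). There the added 1 shrinks the changes of genes of low level. ADAM19, a sheddase of neuregulin, was at 1.39 ± 0.49 and 1.33 ± 0.06 CPM and was not called (log2 change -0.09 ± 0.25, edgeR adjusted p = 0.78).

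ADAM28, a member known from lymphocytes, showed the largest fall of all kept genes. Its level was 2.23 to 6.60 CPM in late pregnancy (median 4.14) and 0 to 1.22 CPM in lactation (median 0.63), and the second LM lactation pool held no read of it. The groups did not overlap (log2 change -2.72 ± 0.40, edgeR adjusted p = 5.9e-06). The log2 change was -1.86 among libraries deposited under lane 7 and -4.05 among those under lane 8. Lane 7 held no LM pool, and the LM lactation pools were at 0.14 and 0 CPM. All 7 tested T cell markers fell as well, where 35.2% of all tested genes fell. Their summed level was 44.4 to 71.6 CPM in late pregnancy and 14.1 to 21.9 CPM in lactation. Of 3 tested B and plasma cell markers, 1 rose and 1 fell, with sums of 3.56 to 5.17 and 4.22 to 8.76 CPM. The part of either cell type in the fall of ADAM28 was not tested. ADAM32, known from the testis, lies 3.70 kb from ADAM9 on chromosome 26. It fell from 1.49 to 3.01 CPM (median 2.44) to 0.44 to 1.13 CPM (median 0.92), with no overlap (log2 change -1.24 ± 0.24, edgeR adjusted p = 0.00012).

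ADAMTS1 stood apart among the ADAMTSs and among all kept genes. This secreted protease cleaves the proteoglycans versican and aggrecan, and its gene lies on chromosome 1 (127748842 to 127757346), 106 kb from ADAMTS5. Its level was 8.48 to 12.4 CPM in late pregnancy (median 10.6) and 55.6 to 92.8 CPM in lactation (median 67.1). The lowest lactation library was thus more than 4 times the highest late pregnancy library, and the rise was 2.69 ± 0.10 on the log2 scale (edgeR adjusted p = 7.2e-15). It stayed a rise on library size alone (0.78) and without any single library (2.58 to 2.74).

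ADAMTS5, a protease of the same group that cleaves aggrecan and versican, rose by 0.84 ± 0.25 on the log2 scale (0.77 ± 0.22 to 1.31 ± 0.51 CPM, edgeR adjusted p = 0.0061), a call lost within lane 7 (0.64, edgeR adjusted p = 0.17). ADAMTS3, which removes the N-terminal propeptide of procollagens and processes VEGF-C, was at 0.87 to 1.85 CPM in late pregnancy (median 1.22) and 0.95 to 4.70 CPM in lactation (median 1.78). Only the pools of the MM group, at 4.70 and 3.61 CPM, lay well above the late pregnancy range. The call (log2 change 1.01 ± 0.29, edgeR adjusted p = 0.0045) was lost without the first MM lactation pool (0.63, edgeR adjusted p = 0.0603) and within lane 8 (0.76).

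ADAMTS9, a proteoglycan-cleaving member with broad expression, fell from 10.2 ± 2.37 to 6.71 ± 1.22 CPM (log2 change -0.61, edgeR adjusted p = 0.003). Its libraries ranged from 6.14 to 13.9 CPM in late pregnancy (median 9.61) and from 5.14 to 7.91 CPM in lactation (median 6.90), so the groups overlapped, and in limma on quantile-normalized RPKM the call was lost (-0.20, adjusted p = 0.0724). ADAMTS6, which acts on fibrillin microfibrils, fell by 0.68 on the log2 scale at 0.99 ± 0.24 and 0.60 ± 0.26 CPM, a call lost in DESeq2, in limma on quantile-normalized RPKM, within either lane and without the first MM late pregnancy, the first HM lactation or the second MM lactation pool (-0.53 to -0.58). ADAMTS10, a fibrillin-binding member, was at 2.74 to 3.76 CPM in late pregnancy (median 3.17) and 1.76 to 3.24 CPM in lactation (median 2.69) and was not called (edgeR adjusted p = 0.077). The procollagen propeptidase ADAMTS2 (-0.38), the aggrecan-cleaving ADAMTS4 (-0.76) and ADAMTS15 (-0.55), ADAMTS12 (0.16) and ADAMTS17 (-0.21) were not called either. Leaving out single pools brought some of these to a call, for instance the first MM lactation pool for ADAMTS2 (-0.46) and ADAMTS15 (-0.75), the second MM lactation pool for ADAMTS10 (-0.36) and the first MM late pregnancy pool for ADAMTS4 (-0.88).

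**Figure D2:**
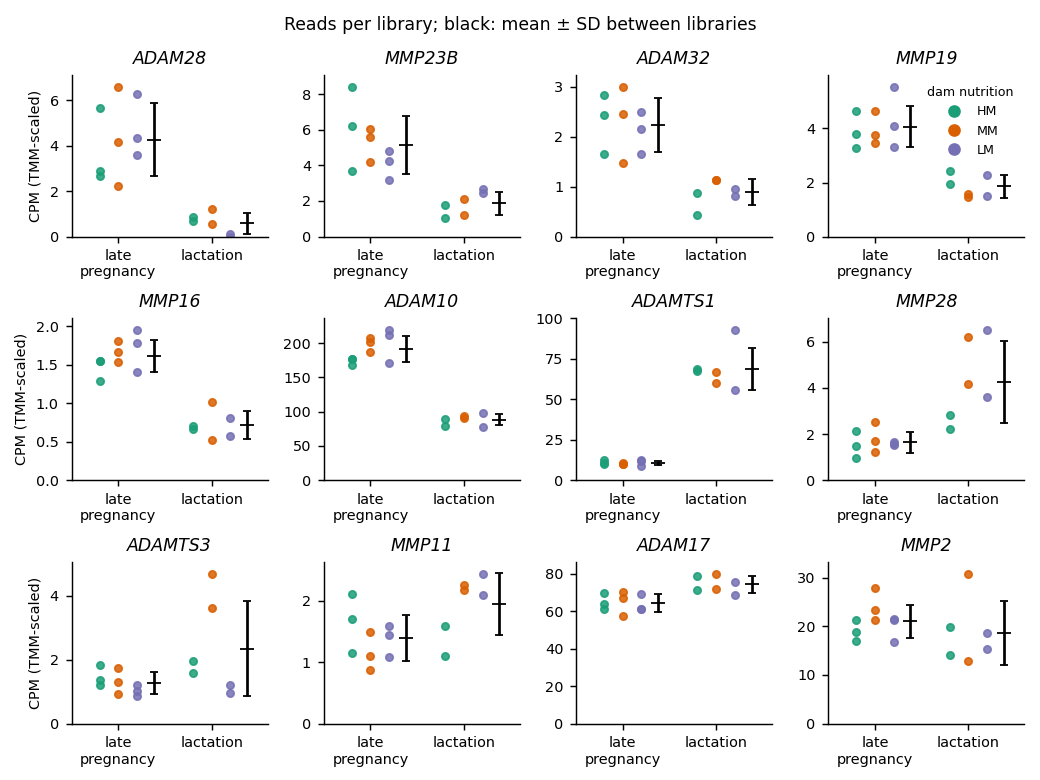
CPM of 12 proteases in each library (y axis, TMM-scaled counts per 1000000, from 0) in late pregnancy and lactation (x axis), coloured by dam nutrition group, with mean ± SD in black. ADAM28, MMP23B, ADAM32, MMP19, MMP16 and ADAM10 lie lower in every lactation library, ADAMTS1 lies at 55.6 to 92.8 CPM in lactation against at most 12.4, and MMP2 overlaps throughout.

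The secreted MMPs of highest level were not called. MMP2, the gelatinase that cleaves denatured and basement membrane collagen, was at 16.8 to 27.8 CPM in late pregnancy (median 21.3) and 13.0 to 30.8 CPM in lactation (median 17.0). It was not called (log2 change -0.15 ± 0.16, edgeR adjusted p = 0.41), but the highest lactation value came from the first MM pool, and without it the change was -0.40 (edgeR adjusted p = 0.0106). That pool also had the highest summed fibroblast markers of the 6 (412 CPM against 254 to 346 CPM). The same held for its myoepithelial (1140 CPM), endothelial (144 CPM) and T cell markers (21.9 CPM). It did not hold for luminal, adipocyte, macrophage, neutrophil or B and plasma cell markers. The part of any of these in its MMP2 level was not tested. MMP7, or matrilysin, an epithelial protease, was at 6.39 to 14.5 CPM in late pregnancy (median 9.32) and 5.57 to 12.3 CPM in lactation (median 7.67) and was not called (log2 change -0.35 ± 0.20, edgeR adjusted p = 0.12). Without the first LM lactation pool, or without the second MM late pregnancy pool, MMP7 was called lower (-0.52 and -0.42).

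The membrane-anchored MMPs changed to different degrees. MMP14, the membrane protease that activates MMP2, was at 7.78 ± 1.42 and 6.93 ± 1.22 CPM and was not called (log2 change -0.14, edgeR adjusted p = 0.38). Its relative MMP15 was the MMP with the third highest level per length, at 14.9 to 20.6 CPM in late pregnancy (median 17.5) and 8.68 to 13.3 CPM in lactation (median 11.9). The ranges did not meet, and the fall was -0.62 ± 0.10 (edgeR adjusted p = 1.8e-05). MMP16, also membrane-anchored, fell from 1.29 to 1.95 CPM (median 1.55) to 0.52 to 1.02 CPM (median 0.68), with no overlap (log2 change -1.17 ± 0.20, edgeR adjusted p = 3.7e-05).

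MMP23B and MMP19 had the largest falls of the MMPs. MMP23B, a membrane-bound member that is cut free by proprotein convertases, was at 3.18 to 8.42 CPM in late pregnancy (median 4.81) and 1.06 to 2.67 CPM in lactation (median 1.92; log2 change -1.43 ± 0.25, edgeR adjusted p = 4.5e-05). MMP19, a secreted protease of basement membrane proteins, was at 3.29 to 5.55 CPM (median 3.78) and 1.47 to 2.42 CPM (median 1.75; log2 change -1.19 ± 0.18, edgeR adjusted p = 6e-06). Neither gene overlapped between the states. MMP27, the only other MMP called lower, had few reads (1.35 ± 0.38 and 0.80 ± 0.24 CPM, log2 change -0.75, edgeR adjusted p = 0.02), and its call was lost without the first LM lactation pool (-0.61), within lane 7 (-0.49) and in limma on quantile-normalized RPKM (-0.19).

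MMP28 and MMP11 were the MMPs that rose. MMP28, or epilysin, an MMP of epithelia, was at 0.97 to 2.53 CPM in late pregnancy (median 1.55) and 2.20 to 6.51 CPM in lactation (median 3.90). The ranges met only because 1 late pregnancy pool lay above the lowest lactation pool, and the rise was 1.42 ± 0.23 (edgeR adjusted p = 1.6e-05). MMP11, a stromal protease that is activated by furin, was at 0.88 to 2.10 CPM (median 1.45) and 1.10 to 2.44 CPM (median 2.14). The groups overlapped widely (log2 change 0.55 ± 0.21, edgeR adjusted p = 0.027), and the call was lost without either MM lactation pool or the first LM lactation pool (0.49 to 0.52). The call of MMP11 was also lost with upper quartile scaling (0.40), without a filter on low counts (0.50) and within lane 7 (0.36). On library size alone MMP28 was at -0.50 and MMP11 at -1.35, against the median of -1.94 that this scaling gives all genes.

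MMP25, an MMP tethered to the membrane by a lipid anchor, was kept but had too few reads for the test of state, at 0.29 to 0.78 CPM in late pregnancy and 0 to 1.36 CPM in lactation. The first HM lactation pool held no read of it. When that pool, its lowest in lactation, was left out, MMP25 entered the test and was called higher (log2 change 0.87 ± 0.29, edgeR adjusted p = 0.0125). The counts over the kept genes were then 7 higher and 16 lower of 34. MMP25 was also called within lane 8 (1.13, edgeR adjusted p = 0.0182). It was not called without any of the other lactation pools (0.44 to 0.83, edgeR adjusted p = 0.0582 to 0.3). Nor was it called without a filter on low counts (0.64, edgeR adjusted p = 0.14).

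The genes that were not kept include the best known inducible collagenases and stromelysins. No read was placed on MMP1, MMP8, ADAM7, ADAM18 or ADAM29 in any library, where 3 reads correspond to 0.10 to 0.27 CPM in late pregnancy and 0.26 to 0.66 CPM in lactation. The other 20 had reads but too few, among them MMP3, MMP9, MMP12, MMP13 and MMP20 and the testis genes ADAM2 and ADAM20. Nearest below the limit were ADAMTS19 (10 reads in 3 libraries, 80 reads in all), ADAMTS16 and MMP9 (2 libraries each, 74 and 51 reads in all). Nearest above it were MMP25 (7 libraries, 121 reads) and ADAMTS6, ADAMTS4, MMP27 and MMP16 (9 libraries each, 217 to 340 reads). On chromosome 15, the MMP cluster from MMP13 (5258838) to MMP7 (5717308) held 8 named genes, of which MMP27 and MMP7 were kept.

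Among the inhibitors, TIMP1 and TIMP2 fell and TIMP3 was not called. TIMP1, which lies within an intron of SYN1 in other mammals and overlaps SYN1 and ARAF in the deposited table, was at 12.5 to 18.0 CPM in late pregnancy (median 13.8) and 8.44 to 15.6 CPM in lactation (median 10.7). The groups overlapped, and the fall was -0.33 ± 0.12 (edgeR adjusted p = 0.019). Only 74.8% of its exon reads were placed uniquely, and on unique reads the call was lost (-0.22, edgeR adjusted p = 0.138), as it was without the second HM or the second MM lactation pool (-0.26 and -0.30) and within lane 7 (-0.22). TIMP2, which both inhibits MMP2 and takes part in its activation by MMP14, was at 9.96 to 16.7 CPM (median 12.0) and 6.66 to 12.8 CPM (median 8.96). It fell by 0.42 ± 0.14 on the log2 scale, again with overlap (edgeR adjusted p = 0.0092). Within lane 7 the change was -0.21 and was not called (edgeR adjusted p = 0.319), and within lane 8 it was -0.64. TIMP3, the matrix-bound inhibitor of ADAM17 and the aggrecan-cleaving ADAMTSs, was at 6.14 to 9.05 CPM (median 6.88) and 5.33 to 8.62 CPM (median 7.03) and was not called (log2 change -0.03 ± 0.11, edgeR adjusted p = 0.9).

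Levels of different genes were compared as reads per kilobase of annotated exon per 1000000 TMM-scaled reads. In late pregnancy the mean level per length was highest for ADAM10 (34.2 ± 3.43), followed by TIMP2 (23.4 ± 3.91), TIMP1 (18.3 ± 2.56), ADAM17 (15.7 ± 1.14), TIMP3 (11.3 ± 1.44) and MMP2 (11.2 ± 1.82). In lactation the order was ADAM17 (18.1 ± 1.09), TIMP2 (17.1 ± 4.01), ADAMTS1 (16.5 ± 3.09), ADAM10 (15.8 ± 1.45), TIMP1 (14.6 ± 3.23) and TIMP3 (11.0 ± 1.72). ADAMTS1 moved from rank 13 to rank 3. Neighbours in either order overlapped in their ranges over libraries, except MMP14 (4.39 ± 0.80) and ADAMTS1 (2.56 ± 0.30) in late pregnancy. At the low end lay ADAMTS6, at 0.15 ± 0.04 in late pregnancy and 0.09 ± 0.04 in lactation. The annotated exons of TIMP2 and TIMP3 were short (538 and 636 bases), so their levels per length depend on those gene models.

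Summed per length within a class, MMP and ADAM levels were lower and ADAMTS levels higher in every lactation library than in any of late pregnancy. The ADAM sum was 63.7 to 77.0 in late pregnancy and 44.0 to 47.5 in lactation. ADAM10 made up 44.8 to 53.5% of it in late pregnancy and 31.3 to 37.7% in lactation, and ADAM17 20.2 to 24.7% and 36.0 to 41.8%. The ADAMTS sum was 8.20 to 10.2 in late pregnancy and 18.6 to 27.7 in lactation. ADAMTS1 alone made up 24.2 to 35.1% of that sum in late pregnancy, a share that went to 68.2 to 80.3% in lactation. The MMP sum was 40.4 to 51.9 and 28.9 to 39.7, and the TIMP sum 48.6 to 61.4 and 34.2 to 52.0, so that the ratio of the MMP sum to the TIMP sum was 0.825 ± 0.047 in late pregnancy and 0.816 ± 0.153 in lactation.

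**Figure D3:**
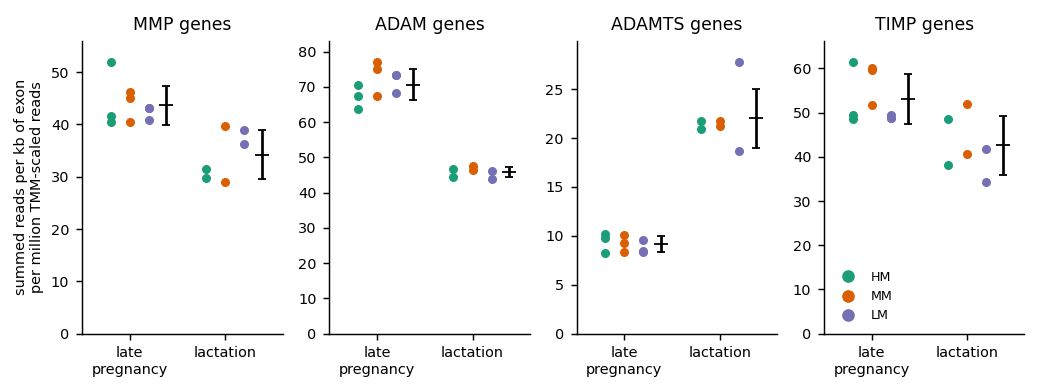
Summed level of the kept genes of each class in each library (y axis, reads per kilobase of exon per 1000000 TMM-scaled reads, from 0) by state (x axis), coloured by dam nutrition group, with mean ± SD in black. The MMP and ADAM sums lie below their late pregnancy range in all 6 lactation libraries and the ADAMTS sum goes from at most 10.2 to at least 18.6, while the TIMP sums overlap.

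Ratios of a protease to an inhibitor within a library do not depend on the scaling between libraries. Whether a protease lies above or below its inhibitor depends on the annotated exon lengths, while the change between states does not. All ratios are of RNA. Of 9 listed pairs, 8 could be computed, the pair of MMP9 and TIMP1 being left out because MMP9 was not kept. ADAM10 exceeded its inhibitor TIMP1 in every late pregnancy library (mean log2 ratio 0.90 ± 0.25, SD) and was close to it in lactation (0.13 ± 0.28). The difference was -0.78 in an exact two-sided permutation test over the 5005 ways to divide the 15 libraries into 9 and 6 (p = 0.0002, the smallest this test can give, Benjamini-Hochberg adjusted p = 0.000799 over 8 pairs). ADAMTS1 was below TIMP3 in every late pregnancy library (-2.15 ± 0.19) and above it in every lactation library (0.57 ± 0.27), a difference of 2.71 with the same exact p and adjusted p. Neither pair overlapped between the states.

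ADAMTS5 to TIMP3 moved from -5.37 ± 0.43 to -4.56 ± 0.68 (exact permutation p = 0.0170, adjusted p = 0.0453), with overlap, and this call was lost when any of 10 single libraries was left out, each MM and LM lactation pool among them (exact permutation, adjusted p = 0.0513 to 0.0879). The ratio of MMP14 to TIMP2, the pair that holds MMP2 at the membrane, differed by 0.31 (exact permutation p = 0.041, adjusted p = 0.0819). MMP2 to TIMP2 differed by 0.25 (exact permutation p = 0.1173), ADAM17 to TIMP3 by 0.25 (exact permutation p = 0.0659) and ADAMTS4 to TIMP3 by -0.61 (exact permutation p = 0.0737). For MMP7 and TIMP1 the difference was 0.02 (exact permutation p = 0.9311). None of these 5 passed the adjustment over all libraries. MMP14 to TIMP2 passed without the second HM or the second LM late pregnancy pool (0.37 and 0.36), ADAM17 to TIMP3 without the second HM lactation pool (0.33) and ADAMTS4 to TIMP3 without the first MM late pregnancy pool (-0.75).

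**Figure D4:**
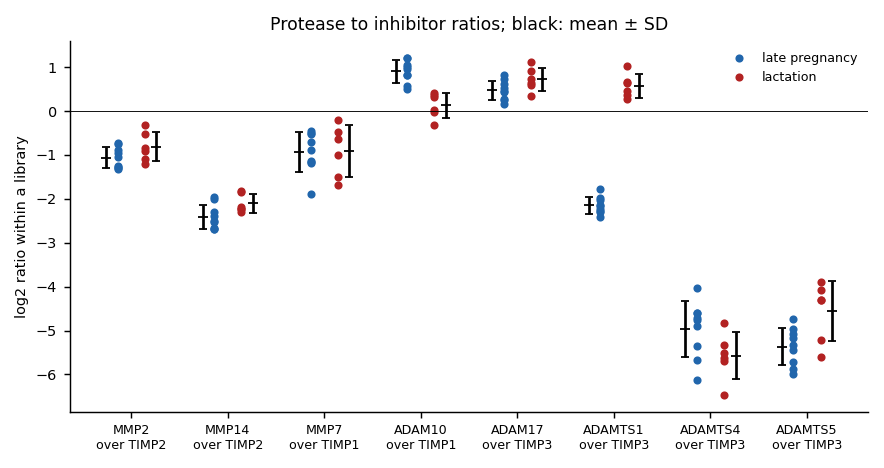
Log2 ratio of a protease to an inhibitor, each per kilobase of exon, within each library (y axis) for 8 pairs (x axis), late pregnancy in blue and lactation in red, with mean ± SD in black. ADAMTS1 over TIMP3 moves from -2.15 to 0.57 and ADAM10 over TIMP1 falls from 0.90 to 0.13, without overlap in either pair.

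Reads on introns come mainly from unspliced RNA and were a readout that the choice of genes did not use. Of 22 kept genes with enough intron reads, 9 were lower and 5 higher in lactation, where 29.0% of the 10344 genes tested on introns were called in each direction. The median log2 change on introns was -0.38 for the 22, against -0.01 for all genes tested. Lower on both exon and intron reads were MMP15, ADAM15, ADAM28, ADAM32 and ADAMTS9. Few intron reads per lactation library were held by ADAM28 (0 to 3), MMP15 (3 to 12) and ADAM15 (2 to 18). For MMP15 the call on introns was close to the limit (edgeR adjusted p = 0.048). Higher on both were MMP28, ADAM17 and ADAMTS3.

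Several genes differed between exon and intron reads. ADAM10 held 206 to 632 intron reads per library in late pregnancy and 119 to 276 in lactation, and its change on introns was 0.06 ± 0.08 (edgeR adjusted p = 0.52) beside -1.12 on exons. ADAM9 (0.10 on introns, -0.37 on exons) and TIMP1 (0.01 and -0.33) were likewise not called on introns. MMP16 was called in opposite directions, with -1.17 on exons and 0.80 ± 0.24 on introns (edgeR adjusted p = 0.0054), from only 4 to 19 intron reads per library. MMP25 held 224 to 681 intron reads per late pregnancy library in a gene model that spans 98.4 kb, far more than on its exons, and these fell by 1.43 ± 0.12 on the log2 scale (edgeR adjusted p = 2.4e-10).

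Genes not called on exons could also be called on introns. ADAMTS17 rose on introns (0.69 ± 0.11, edgeR adjusted p = 5.4e-06), and MMP2 (-0.82), ADAMTS10 (-0.80) and ADAMTS15 (-0.82) fell. MMP2 held only 0 to 7 intron reads per lactation library (edgeR adjusted p = 0.048), and ADAMTS15 held 1 to 9. The table gives no strand, so reads of overlapping genes could not be separated. Another annotated feature overlaps 7 of the kept genes, namely MMP28, ADAM10, ADAM17, ADAM32, ADAMTS12, TIMP1 and TIMP3. For ADAM10 the overlap with FAM63B is 44 bases, while TIMP3 lies whole within SYN3, on which 8 reads were placed over all libraries. TIMP1 overlaps SYN1 and part of ARAF, and ARAF held more reads over all libraries than FAM63B, SYN1 or SYN3. Whether reads of ARAF were counted among the intron reads of TIMP1 was not tested.

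**Figure D5:**
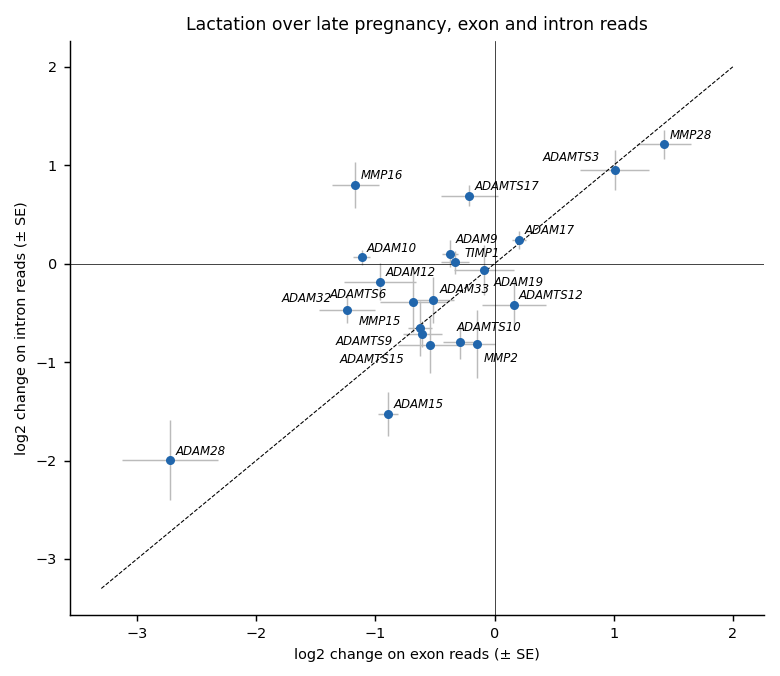
Log2 change between states on exon reads (x axis) and on intron reads (y axis) for the 21 proteases and inhibitors tested on both, point ± SE, with the line of equal change dashed. ADAM10 lies at -1.12 on exons and 0.06 on introns, MMP16 at -1.17 and 0.80, and MMP28 and ADAMTS3 lie near the line.

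The dam nutrition groups allow a test of whether the feed of the dams in early gestation left a difference in these genes. In late pregnancy none of 34 kept genes was called (0.0% of 13747 genes tested, edgeR F-test over the 3 groups). On simulated counts this test recovered 42% of 1.5-fold and 79.6% of 2-fold changes, so differences of that size can be missed. At an unadjusted p under 0.05 there were 571 genes, among them MMP2 and MMP7, and DESeq2 called 20 genes but none of the kept ones. MMP2 was at 24.2 CPM (21.3 to 27.8) in the MM group, 18.9 CPM (16.9 to 21.2) in HM and 19.9 CPM (16.8 to 21.6) in LM. MMP7 was lowest in the MM group at 7.81 CPM (6.39 to 8.80), against 11.7 CPM (7.59 to 14.5) in HM and 11.5 CPM (9.32 to 12.9) in LM. The adjusted p of both was 1.0 (edgeR).

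In the test of whether the change between states differed between nutrition groups, no kept gene was called either (0 of 33, and 0.0% of the 13345 genes). Unadjusted, 876 genes had a p under 0.05, among them ADAMTS3 and ADAMTS5 with an edgeR adjusted p of 0.735 and 0.74, and DESeq2 called 21 genes and no kept gene. ADAMTS3 in lactation was at 4.15 CPM in MM, 1.78 CPM in HM and 1.09 CPM in LM. ADAMTS5 in lactation was at 1.74 CPM in MM, 1.51 CPM in LM and 0.68 CPM in HM.

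Partners of the proteases were read from a list of 59 genes that activate them, inhibit them by other means or are cut by them. Of 43 tested, 13 rose, 19 fell and 11 were not called, with a median log2 change of -0.25. Among all tested genes 33.1% rose and 35.2% fell, and the counts in the lists that follow stand against the same shares. Among the activators and the plasmin system, 2 rose and 3 fell of 8. FURIN, a convertase that removes the propeptide of ADAMs, ADAMTSs and membrane-type MMPs, fell from 38.3 ± 3.96 to 14.2 ± 3.03 CPM (log2 change -1.42, edgeR adjusted p = 3.7e-10). The convertase PCSK5 rose (0.87, edgeR adjusted p = 0.012), and PCSK6 was not called (-0.35). BSG, a surface protein that induces MMPs, rose by 0.73 on the log2 scale, and PLAT, the tissue plasminogen activator, fell by 0.79.

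Of 7 tested genes that carry ADAM10 or ADAM17 to the surface and mature them, 4 rose and 2 fell. TSPAN33, a tetraspanin that associates with ADAM10, fell from 5.66 ± 0.82 to 0.80 ± 0.32 CPM (log2 change -2.73, edgeR adjusted p = 1.6e-10). The ADAM10-associated tetraspanins TSPAN5 (0.66), TSPAN14 (0.30) and TSPAN17 (0.56) rose, and so did RHBDF2 (0.36), which carries ADAM17, while its relative RHBDF1 fell by 0.32. TSPAN15 was not called (-0.07).

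Of 6 tested ligands and receptors that are cut by these sheddases, 3 rose and 2 fell. NOTCH1 rose from 8.07 ± 1.23 to 24.9 ± 8.92 CPM (log2 change 1.66), BTC, or betacellulin, from 3.05 ± 0.53 to 9.43 ± 0.90 CPM (1.62), and HBEGF from 0.56 ± 0.21 to 1.30 ± 0.41 CPM (1.23; edgeR adjusted p = 0.00067 for the last). TNF fell by 1.21 and JAG1 by 0.25 on the log2 scale, and CDH1, or E-cadherin, was not called (-0.11).

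Among the other inhibitors, 4 of 6 fell and none rose, where 35.2% of all tested genes fell and 33.1% rose. A2M, the plasma protease trap alpha-2-macroglobulin, fell by 1.20, RECK, a membrane-anchored MMP inhibitor, by 0.51, and THBS1 and SPOCK2 by 0.52 and 0.56 on the log2 scale. Of the ADAMTS-like and BMP1 family, 2 rose and 3 fell of 7. The procollagen C-proteinase BMP1 was higher by 0.69. Of its enhancers, PCOLCE2 was higher (0.74) and PCOLCE lower (-0.46). Among the matrix substrates 2 rose and 5 fell of 9. COL1A1, a chain of fibrillar collagen, fell from 283 ± 79.4 to 108 ± 27.6 CPM (log2 change -1.39, edgeR adjusted p = 1.4e-06). VCAN, the versican cut by ADAMTS1, fell as well (-0.44), whereas the basement membrane collagens COL4A1 (0.40) and COL4A2 (0.53) rose. ACAN, the aggrecan also cut by ADAMTS1, had too few reads for the test. It was at 0 to 0.17 CPM in late pregnancy and 0.66 to 1.58 CPM in lactation.

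Markers of the cell types that a biopsy can hold were set beside these changes, in a comparison where 35.2% of all tested genes fell and 33.1% rose. Fibroblast markers (led by COL1A1 and LUM) fell in 5 of 6 tested, with a summed level of 392 to 676 CPM in late pregnancy and 254 to 412 CPM in lactation. Endothelial markers (PECAM1, VWF) fell in 4 of 5 (158 to 220 and 102 to 144 CPM), and macrophage markers (C1QC, C1QB) fell in 6 of 8 and rose in 1 (163 to 211 and 90.4 to 127 CPM). T cell markers (CD3E, CD3G) fell in 7 of 7. No adipocyte marker (FABP4, CFD) of 4 was called (247 to 451 and 325 to 409 CPM).

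Luminal epithelial markers (CSN2, LALBA) rose in 6 of 10 and fell in 2 (25490 to 52130 and 543700 to 696400 CPM). Without these milk genes they summed to 1639 to 2027 CPM in late pregnancy and 2444 to 2679 CPM in lactation. Myoepithelial markers (MYH11, ACTA2) rose in 4 of 8 and fell in 2 (827 to 919 and 789 to 1140 CPM). Neutrophil markers (FCGR3A, MPO) and B and plasma cell markers (MZB1, CD79A) each rose in 1 and fell in 1 of 3, with sums of 7.61 to 11.5 and 8.13 to 20.1 CPM for the former and 3.56 to 5.17 and 4.22 to 8.76 CPM for the latter. Of the neutrophil markers, MPO rose from a mean of 0.04 to 12.9 CPM and FCGR3A fell from 8.05 to 2.6 CPM. The others found of that list had means below 1 CPM in both states. Among the markers at 0 in at least 1 library were S100A8, S100A12, CXCR2, MPO, ELANE, CD79B, MS4A1, CD4, CD8A, PLIN1, LEP and CIDEC. The part of these cell type markers in the changes of the proteases and inhibitors was not tested.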

How the data were processed

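The authors sequenced TruSeq RNA libraries on the Illumina Hi-Seq and mapped paired reads to the sheep genome (Oar 3.1 in the labels, version 3.2 in the methods) in CLC Genomics Workbench. The deposited table gives, per feature and library, raw counts of reads on exons and on the whole gene, the authors' RPKM, and their RPKM after quantile normalization. RPKM computed again from these counts differed from the deposited ones by at most 4.82e-08 of the value. Columns with the authors' fold changes and p-values were not used. Coordinates are those of the table.

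Exon reads (gene reads where none of the exons is annotated, 5583 features) were tested in edgeR 4.0.16 (R 4.3.3) with filterByExpr and TMM, lactation against late pregnancy, without covariates. The SE is the log2 change divided by the square root of F. Intron reads are gene reads less exon reads. Ratios used a pseudocount of 0.5 reads per gene. DESeq2 1.42.0 and limma 3.58.1 on log2(RPKM + 1) were alternatives. The added 1 shrinks limma changes of genes of low level, so their sizes cannot be set beside those of edgeR. Scripts were tested on simulated counts. Intervals for counting error are not given, since reads without molecular identifiers are not independent.

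The genes and lists were chosen with earlier results of these data known. Values by library are given for the 5 largest called changes in each direction with at least 1 CPM, for the 3 genes of highest level per length in each protease class, and for every TIMP. Of the partners, the 3 largest called changes each way are named, and of each marker list the 2 genes of highest level. Other partner genes, ADAMTS5, MMP25 and the single genes of the intron comparison were chosen after their values were seen. None of the pairs of libraries within a group agreed within sampling noise.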

Additional observations from a re-analysis of the deposited data

Results flagged for a closer look

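The highest and lowest libraries of the kept genes were compared with the rest of their state by Dixon's test at the 95% level. Of 68 groups checked (34 genes in 2 states), 4 had a library set apart, and chance alone gives about 1 in 20 groups. ADAMTS1 in lactation was highest in the first LM pool at 92.8 CPM, with the next pool at 68.4 CPM, and without that pool its rise was 2.58 on the log2 scale. MMP14 in lactation was highest in the first MM pool at 9.22 CPM, with the next at 7.03 CPM. ADAM15 in lactation was lowest in the second MM pool at 10.9 CPM, with the next at 13.7 CPM. ADAMTS6 in late pregnancy was highest in the first MM pool at 1.51 CPM (1.505), with the next at 1.12 CPM, and without that pool its fall was no longer called (-0.58, edgeR adjusted p = 0.0645). The first HM lactation pool, which stood apart from the other lactation pools over all genes, was set apart in none of these groups.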

How the results depend on the processing

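Scaling mattered most. On library size only, 1 kept gene was higher and 32 lower, 0 partners were higher and 41 lower, and the log2 changes of MMP11 (-1.35), MMP28 (-0.50), ADAM17 (-1.70), ADAMTS3 (-0.89), ADAMTS5 (-1.05) and ADAMTS12 (-1.74) were negative, since that scaling moves the median of all genes to -1.94. Relative to that median all 6 were positive (0.19 to 1.44), which repeats the values under TMM and is no separate test. Within the lane 7 libraries, an alternative chosen after seeing the data, 3 kept genes were higher and 10 partners lower. None of these libraries is an LM pool. The other planned settings gave 4 to 6 higher and 12 to 21 lower kept genes. Leaving out each library in turn gave 4 to 7 kept genes higher and 15 to 18 lower, 12 to 13 partners higher and 16 to 23 lower, 4 to 5 genes higher and 7 to 10 lower on introns, 2 to 4 ratios passing, and 0 calls for nutrition and for its interaction with state. With nutrition group and pool number as a replicate block, 5 kept genes were higher and 15 lower (MMP11 and MMP27 lost their calls), with 13 partners higher and 17 lower. The labels do not tie equal pool numbers to the same ewes, and the pools of equal number barely deviated together (correlations -0.02 to 0.07 over 6 pairs), although 4 of 6 lactation pools correlated best with their own number, a hint from the data and not the design. With a pseudocount of 5 reads the ratio of ADAMTS4 to TIMP3 moved from -0.61 to 0.05, and neither value was called. The causes were not tested. Genes near 1 CPM rest on few reads in lactation, where milk protein genes take most of the depth, and their changes are the least certain.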
